A study of Mus musculus with 11 samples.

Results

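The genes described here encode the mitochondrial respiratory chain and the ATP synthase, and they were followed by RNA-seq through the formation of mouse hematopoietic stem cells (HSCs). They were the gene rows whose symbol begins with Nduf followed by a, b, c, s or v, with Cox followed by a digit of 4 to 8, with Uqcr or with Atp5, together with Sdha, Sdhb, Sdhc, Sdhd and the protein-coding genes of the mitochondrial genome, and without symbols that end in -ps. Atp5l2, which the annotation types as a pseudogene, has no such ending and was counted. This gave 103 of 37820 gene IDs, 90 in the nuclear genome and 13 in the mitochondrial genome. Levels are in FPKM (fragments per kilobase of transcript scaled to the number of mapped fragments), as deposited. A gene was tested when it had at least 1 FPKM in at least 2 libraries, which 84 nuclear and 12 mitochondrial members did among 14708 genes in all. The 7 members below that limit were Atp5l2, Cox6a2, Cox7b2, Cox8b, Cox8c, a second ID for Ndufb8 and mt-Nd4l. Cox4i1, the common isoform of its subunit, was not analysed here.

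The respiratory chain passes electrons from NADH and succinate to oxygen through complexes I to IV in the inner mitochondrial membrane, and complex V uses the proton gradient to make ATP. Most subunits are encoded in the nucleus and imported, while a small core of complexes I, III, IV and V is encoded by the mitochondrial DNA, which is transcribed as long precursors from both strands and then cut. Adult bone marrow HSCs are known for their low rate of division and their reliance on glycolysis, whereas fetal liver HSCs divide actively.

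The 11 libraries came from 5 sorted populations. Endothelial cells (Endo, 2 libraries) and hemogenic endothelium (HE, 2 libraries) came from the large arteries of day 10.5 embryos that carried the Runx1:GFP reporter allele, and both were sorted as CD31+ CD45- CD41-. Endo cells were GFP negative and Kit-, and HE cells were GFP positive with low or no Kit. Pre-HSCs (3 libraries) were CD31+ CD144+ ESAM+ Kit+ cells positive for the Ly6a:GFP transgene, from pooled tissue of embryos that the labels give as day 10.5 and the methods as a day older. Fetal liver (FL) HSCs (2 libraries, day 14.5) and bone marrow (BM) HSCs (2 libraries, mice of 6 to 8 weeks) were Lin- Sca1+ Kit+ CD150+ CD48- cells by the methods, and BM HSCs were also CD135-. The study's list of cells purified for RNA-seq instead gives BM HSCs as Lin- Sca1+ Kit+ CD150+ CD34-. The labels give the strain B6129SF1 to every library, whereas the methods give different crosses and reporter alleles for the populations, so strain and stage cannot be told apart.

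Depth is unknown, since whole reads could not be recovered from the FPKM. The defining endothelial genes summed to between 1053 and 1457 FPKM in each Endo, HE and pre-HSC library and to at most 43.3 FPKM in the HSC libraries. Of the 6 erythroid markers, 6, 6, 4, 5 and 1 averaged at least 1 FPKM in Endo, HE, pre-HSCs, FL HSCs and BM HSCs, and the 6 summed to 6454 to 6715, 7109 to 9336, 679 to 930.1, 93.3 to 230.3 and 6.12 to 11.6 FPKM. Macrophage markers were highest in pre-HSCs, at 151 to 739 FPKM over 5 genes, and lowest in Endo, at 2.81 to 4.30 FPKM. The part of these other cells in the results was not tested. In bulk libraries, a lower share of a cell type and less RNA per cell cannot be told apart.

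The nuclear members were among the most abundant transcripts in every population. Their median level over the 11 libraries was 153 FPKM, and together they made up 2.02% to 3.40% of all FPKM. The 13 mitochondrial members made up 2.61% to 5.08%. The summed nuclear level was 26806 and 19065 FPKM for Endo, 21970 and 18553 for HE, 13502, 13971 and 16247 for pre-HSCs, 24333 and 16748 for FL HSCs and 12565 and 14296 for BM HSCs. The pre-HSC and BM HSC libraries all lay below every library of the other populations. The summed mitochondrial level was 34578 and 19377 FPKM for Endo, 18099 and 18131 for HE, 27650, 24867 and 22587 for pre-HSCs, 25978 and 30237 for FL HSCs and 31621 and 28988 for BM HSCs. The 2 HE libraries were thus the lowest of all 11 for the mitochondrial genes.

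The ratio of summed mitochondrial to summed nuclear FPKM was lowest in HE and highest in BM HSCs. It was 1.29 and 1.02 for Endo, 0.824 and 0.977 for HE, 2.05, 1.78 and 1.39 for pre-HSCs, 1.07 and 1.81 for FL HSCs and 2.52 and 2.03 for BM HSCs. On the log2 scale it averaged 0.78 ± 0.28 (SD, n = 3) in pre-HSCs against -0.16 ± 0.17 (SD, n = 2) in HE, and these libraries did not overlap. Neighbors that overlapped were FL HSCs, at 0.47 ± 0.54 (SD, n = 2), and pre-HSCs. BM HSCs, at 1.18 ± 0.22 (SD, n = 2), lay above both FL HSC libraries in this ratio, by 0.70, whereas with medians in place of sums the BM HSC and FL HSC libraries overlapped and the difference was 0.12. The difference of HE from Endo, which was at 0.20 ± 0.24 (SD, n = 2), was -0.35, close in size to the pooled SD of 0.31. With medians in place of sums the ratio was 8.87 and 6.86 for Endo and 7.09 and 7.78 for HE. The HE and Endo libraries thus overlapped with medians. With 2 or 3 libraries a population no test was made of the ratio. The ratio does not move with the scaling of a library, but it depends on how the mitochondrial reads were mapped, which is described with those genes.

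**Figure D1:**
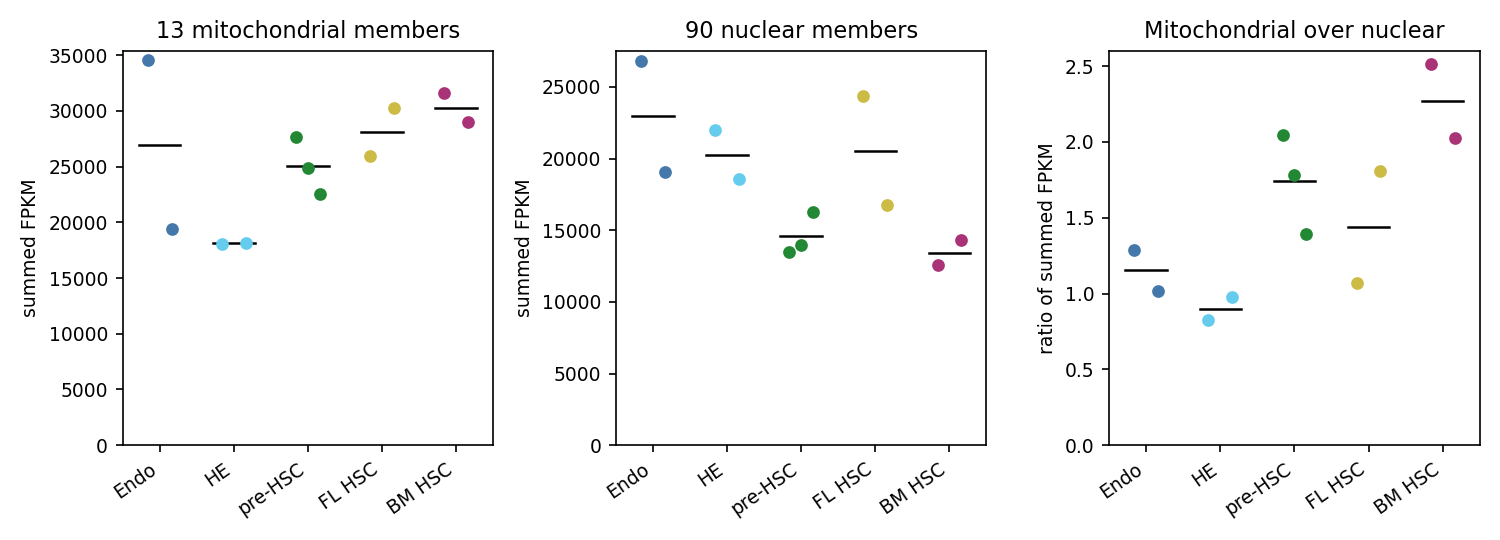
Summed FPKM of the 13 mitochondrial members (left), of the 90 nuclear members (middle) and their ratio (right). Each point is 1 library and each line the mean of a population. The ratio was below 1 in both HE libraries and above 2 in both BM HSC libraries.

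The 2 libraries of a population differed in the overall level of these genes, and other abundant genes differed with them. The median nuclear member differed from the mean of all libraries by 0.62 and 0.11 (log2) in Endo replicates 1 and 2, by 0.36 and 0.07 in HE and by 0.42 and -0.07 in FL HSCs. The 242 other genes with exons of under 1000 bases and a mean of at least 50 FPKM moved likewise, by 0.52 and 0.02 in Endo, 0.26 and 0.00 in HE and 0.43 and -0.00 in FL HSCs. Small subunits of the chain have short transcripts, with a median exon length of 1234 bases over the 96 tested members. The part of this difference between libraries in the results was not tested beyond the alternatives given with them.

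**Figure D2:**
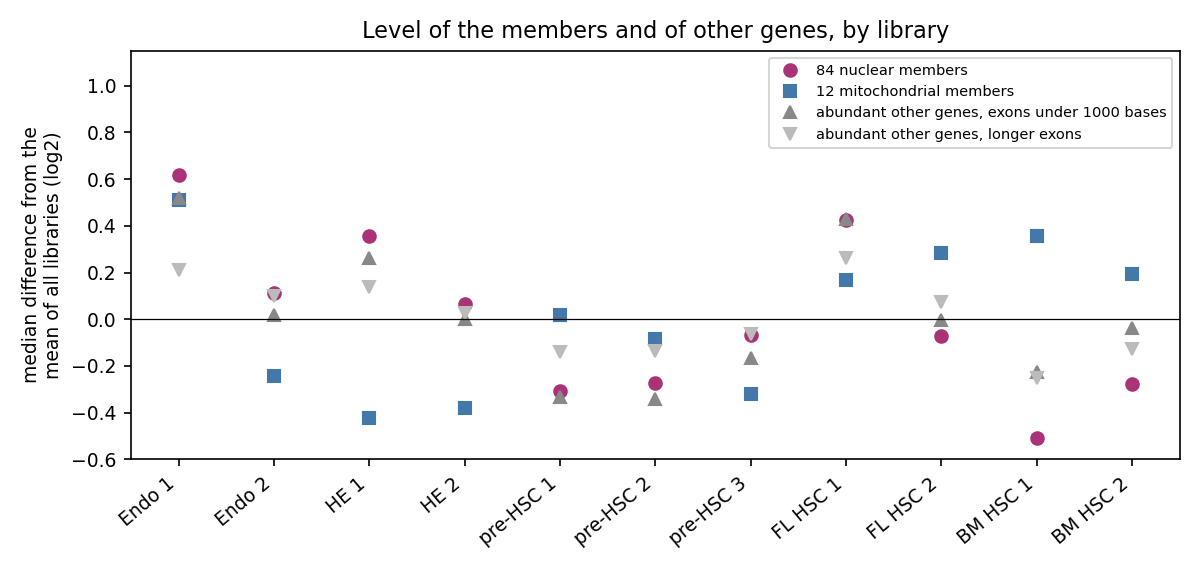
Median difference of each gene set from its mean over the 11 libraries (log2(FPKM + 1)), by library. Circles are the 84 tested nuclear members, squares the 12 tested mitochondrial members, upward triangles other genes with a mean of at least 50 FPKM and exons of under 1000 bases, and downward triangles such genes with longer exons. Nuclear members and other abundant short genes stood highest together in Endo replicate 1 and FL HSC replicate 1.

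Each neighboring pair of populations was compared with limma on log2(FPKM + 1). A gene is called here when its adjusted p is under 0.01 over the 5 populations, its adjusted p for the pair is under 0.05 and it changed at least 2-fold. Changes at an adjusted p under 0.05 of any size are counted apart, and every p was adjusted over all 14708 genes. The methods call the libraries biological replicates and do not tie them to separate litters, so the p-values measure the spread between these libraries.

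Between HE and Endo no member passed either rule with limma. Over all genes, 0.0544% were called higher and 0.0748% lower, and the shares at an adjusted p under 0.05 of any size were the same. At an unadjusted p under 0.05, 1 nuclear member was higher in HE, and 7 mitochondrial members were lower, among them mt-Nd6, with a log2 change of -0.75 (SE 0.21, limma's adjusted p = 0.293). The median log2 fold change was -0.56 over the 12 mitochondrial members and -0.16 over the 84 nuclear members, against 0.03 over all genes and -0.09 over 2056 other genes with a mean of at least 50 FPKM. Without Endo replicate 1 the nuclear median was 0.07 and the mitochondrial -0.25, and the nuclear median was -0.05 with FPKM scaled to equal totals, -0.06 with quantile normalization and -0.08 after centering on those abundant genes. Mural markers were at 671 to 710 FPKM in HE, against 148 to 208 FPKM in Endo, and muscle markers at 122 to 151 against 35.1 to 42.8 FPKM. Germ cell markers went the other way, at 17.6 to 25.5 FPKM in HE against 127 to 191 FPKM in Endo.

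In pre-HSCs 22 nuclear members fell relative to HE at an adjusted p under 0.05 and none rose. No mitochondrial member passed in either direction, but 5 of the 12 rose with FPKM scaled to equal totals, 7 with quantile normalization and 5 after centering on the other abundant genes. Of all genes, 11.7% fell and 15.4% rose by this rule. Of the nuclear members 26.2% fell, which is close to the 22.8% of the other abundant genes and the 26.9% of the short ones among them. By complex, 12 of 36 tested nuclear genes of complex I fell, 0 of 4 of complex II, 2 of 8 of complex III, 5 of 15 of complex IV and 3 of 15 of complex V. The median log2 fold change was -0.43 over the nuclear members and 0.29 over the mitochondrial members. These medians were -0.26 and 0.46 with FPKM scaled to equal totals, -0.23 and 0.64 with quantile normalization, and -0.21 and 0.52 after centering. Called at 2-fold or more were 4 members, Ndufa12, Ndufa4l2, Uqcrq and Atp5g1, all lower in pre-HSCs, which is 4.17% of the 96 tested against 4.34% of all genes called lower and 6.98% called higher. With FPKM scaled to equal totals only Ndufa12 and Ndufa4l2 of these stayed called. Without HE replicate 1 the members at an adjusted p under 0.05 numbered 2, without pre-HSC replicate 1 they numbered 5 and without pre-HSC replicate 2 they numbered 10. The called members numbered 2 without HE replicate 1, 2 without pre-HSC replicate 1 and 7 without HE replicate 2. Erythroid markers were at 679 to 930.1 FPKM in pre-HSCs, against 7109 to 9336 FPKM in HE, and macrophage markers at 151 to 739 against 6.397 to 9.03 FPKM. Mural markers were at 131 to 259 FPKM in pre-HSCs, against 671 to 710 FPKM in HE, and muscle markers at 14.98 to 35.5 against 122 to 151 FPKM.

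In FL HSCs 33 members rose relative to pre-HSCs at an adjusted p under 0.05, 30 nuclear and 3 mitochondrial, and none fell. With quantile normalization 23 nuclear and 2 mitochondrial members rose and 1 and 2 fell, and with FPKM scaled to equal totals 21 nuclear and 2 mitochondrial members rose and 2 nuclear ones fell. Of all genes, 27.6% rose and 22.4% fell. The share of nuclear members that rose, 35.7%, was below the 40.6% of the other abundant genes. Their rise by complex covered 13 of 36 genes of complex I, 2 of 4 of complex II, 3 of 8 of complex III, 6 of 15 of complex IV, 3 of 15 of complex V and 3 of the 4 complex I assembly factors. The median log2 fold change was 0.39 over the nuclear members, 0.36 over the mitochondrial members, where quantile normalization gave -0.02, and 0.34 over the other abundant genes. The nuclear median was 0.14 with FPKM scaled to equal totals, 0.17 with quantile normalization, 0.08 after centering, 0.15 without FL HSC replicate 1 and 0.64 without FL HSC replicate 2, and the mitochondrial median was 0.11 with equal totals and 0.05 after centering. The 7 members called at 2-fold or more were Cox6b2, Ndufa12, Sdha, mt-Nd6, Ndufa4l2, Atp5g1 and mt-Nd5, all higher in FL HSCs, which is 7.29% of those tested against 11.1% of all genes called higher and 13.9% called lower. Without FL HSC replicate 1 the members at an adjusted p under 0.05 numbered 10 and the called members 5, without FL HSC replicate 2 they numbered 43 and 14, and without pre-HSC replicate 1 the first count was 20. After each library was centered on the other abundant genes, Cox6b2, Ndufa12 and Sdha stayed called. Erythroid markers were at 93.3 to 230.3 FPKM in FL HSCs, against 679 to 930.1 FPKM in pre-HSCs, and endothelial markers at 41.8 to 43.3 against 1316 to 1457 FPKM. Macrophage markers were at 94.2 to 252 FPKM in FL HSCs, against 151 to 739 FPKM in pre-HSCs. Hepatocyte markers were at 7.64 to 30.0 against 3.12 to 25.7 FPKM. FL HSC replicate 1 had the higher sum of erythroid, macrophage and hepatocyte markers.

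In BM HSCs 21 nuclear members fell relative to FL HSCs at an adjusted p under 0.05, and no member rose, although 4 mitochondrial and 1 nuclear member rose after centering on the other abundant genes. Of all genes, 11.6% fell and 11.4% rose. Of the nuclear members 25.0% fell, against 29.2% of the other abundant genes. They included 3 of the 4 complex II genes (Sdhb, Sdhc and Sdhd), 7 of 36 of complex I, 3 of 8 of complex III, 3 of 15 of complex IV and 5 of 15 of complex V. The median log2 fold change was -0.55 over the nuclear members, where 81 of 84 were negative, 0.17 over the mitochondrial members and -0.32 over the other abundant genes. The nuclear median was -0.35 with quantile normalization, -0.34 without FL HSC replicate 1 and -0.19 after centering, where 62 of 84 were negative. The mitochondrial median was 0.30 with FPKM scaled to equal totals, 0.53 after centering, 0.11 without FL HSC replicate 1 and 0.31 without FL HSC replicate 2. The 4 called members, Ndufa4l2, Ndufab1, Atp5g1 and Sdhd, were all lower in BM HSCs, which is 4.17% of those tested against 4.07% of all genes called lower and 5.99% called higher. Without FL HSC replicate 1 the members at an adjusted p under 0.05 numbered 3, without BM HSC replicate 1 also 3, without BM HSC replicate 2 they numbered 12, and without FL HSC replicate 2 they numbered 44. The called members numbered 2 without FL HSC replicate 1, 2 without BM HSC replicate 1 and 19 without FL HSC replicate 2. With only the BM HSC and FL HSC libraries in the fit no member passed either rule, and the 4 calls were lost. FL HSCs are shared by this comparison and the one before it, so a high FL HSC level enters both. Erythroid markers were at 6.12 to 11.6 FPKM in BM HSCs, against 93.3 to 230.3 FPKM in FL HSCs. Macrophage markers were at 106 to 130 against 94.2 to 252 FPKM, and hepatocyte markers at 2.56 to 3.88 against 7.64 to 30.0 FPKM. FL HSC replicate 1 had the higher sum in all 3 of these lists.

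**Figure D3:**
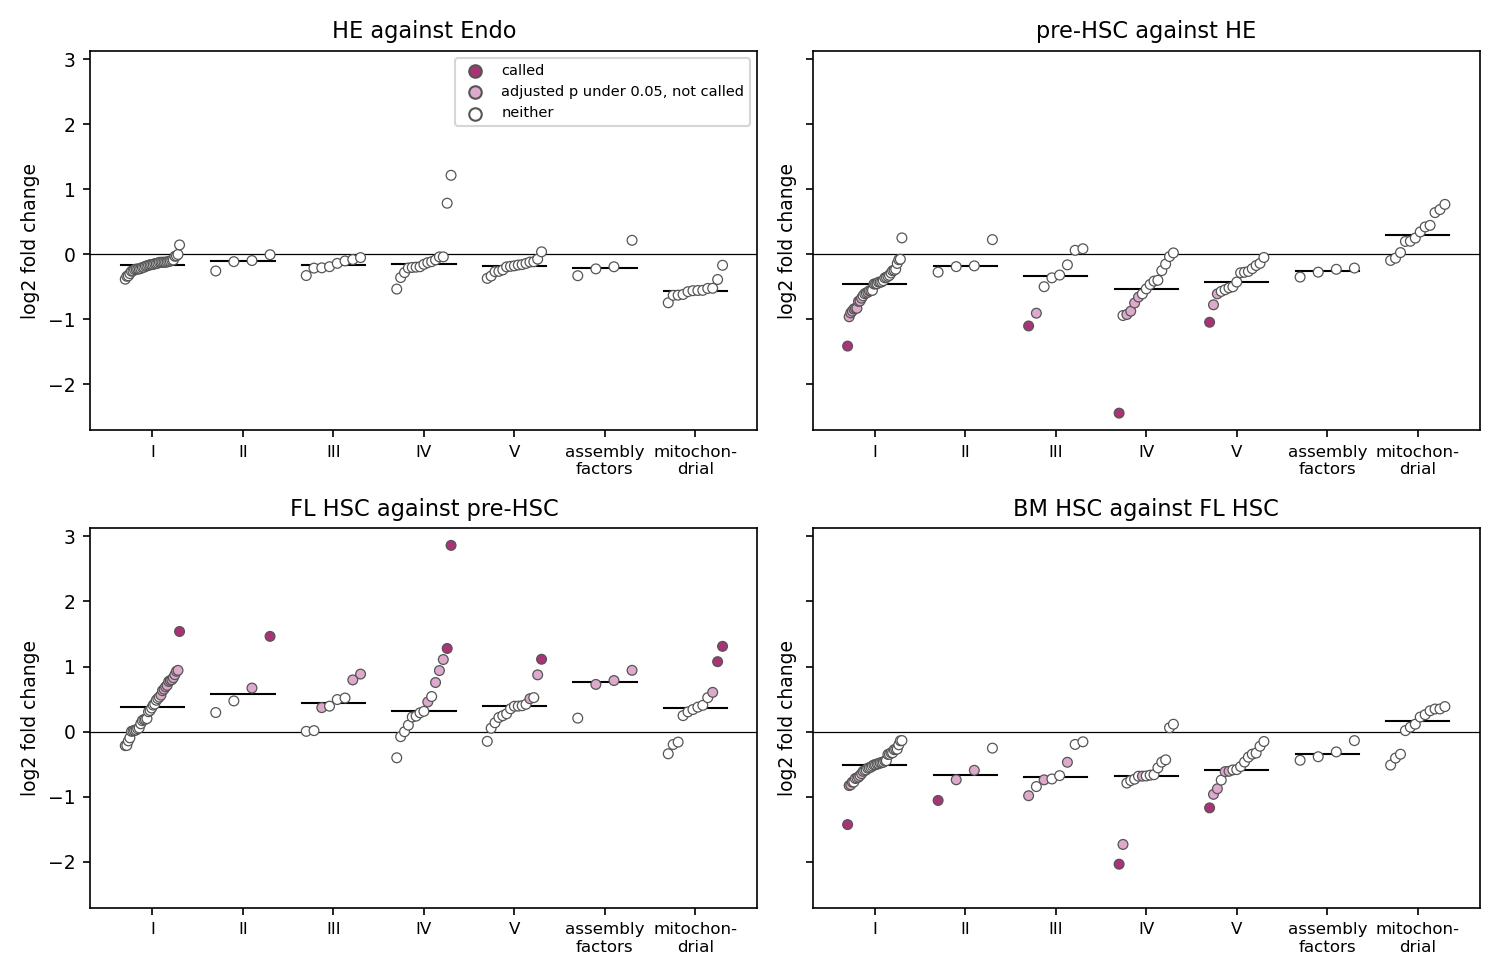
Log2 fold change of every tested member except Atp5s and Atp5sl in each neighboring comparison, by complex for nuclear members, with the mitochondrial members at the right. Dark points were called, light points had an adjusted p under 0.05 without being called, white points neither, and lines are medians. Nuclear members lay mostly below 0 in pre-HSCs against HE and in BM HSCs against FL HSCs, and mostly above 0 in FL HSCs against pre-HSCs.

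Complex I takes electrons from NADH. Ndufa12, an accessory subunit near the base of its matrix arm, was lowest in pre-HSCs. The gene lies at chr10:93661700-93684188 (mm9, as for all genes below). Its level was 248 and 191 FPKM for Endo, 199 and 172 for HE, 65.6, 63.4 and 78.3 for pre-HSCs, 252 and 161 for FL HSCs and 128 and 141 for BM HSCs. The pre-HSC libraries lay below all 8 others. The log2 change was -1.41 in pre-HSCs against HE (SE 0.20, limma's adjusted p = 0.00135) and 1.54 in FL HSCs against pre-HSCs (SE 0.20, limma's adjusted p = 0.000167). A copy on chromosome 5 shares part of the Ndufa12 transcript, and 77.8% of its stretches of 75 bases were unique in the genome.

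Ndufab1, the mitochondrial acyl carrier protein, which is a subunit of complex I and also carries the growing chain in mitochondrial fatty acid synthesis, was lowest in BM HSCs. The gene lies at chr7:129228917-129245400. It had 290 and 190 FPKM for Endo, 186 and 207 for HE, 148, 139 and 157 for pre-HSCs, 164 and 117 for FL HSCs and 62.3 and 41.3 for BM HSCs. Both BM HSC libraries lay below every other library. It fell by 1.43 on the log2 scale in BM HSCs against FL HSCs (SE 0.25, limma's adjusted p = 0.00379). Of its stretches of 75 bases 88.8% were unique.

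The other nuclear subunits of complex I changed by less than 2-fold where they passed the test. Ndufv3, an accessory subunit, fell by 0.96 on the log2 scale in pre-HSCs against HE (SE 0.27, limma's adjusted p = 0.0273) and rose by 0.77 in FL HSCs against pre-HSCs (SE 0.27, limma's adjusted p = 0.038). The most abundant nuclear genes of this complex were Ndufa3 and Ndufb8, both accessory subunits, and neither passed the test in any comparison. Ndufa3 had 221 to 462 FPKM and Ndufb8 168 to 413 FPKM over the 11 libraries. Among the 4 assembly factors, which build the complex and are absent from its final form, Ndufaf1, Ndufaf2 and Ndufaf4 rose in FL HSCs against pre-HSCs. Ndufaf1 had 26.2 and 19.95 FPKM in FL HSCs, against 12.7, 11.4 and 10.3 FPKM in pre-HSCs, with a log2 change of 0.94 (SE 0.16, limma's adjusted p = 0.000946). The values were 0.78 for Ndufaf2 and 0.73 for Ndufaf4, with limma's adjusted p = 0.0176 and 0.00803.

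Complex II is succinate dehydrogenase, the only complex whose subunits are all nuclear and the only one that is also an enzyme of the tricarboxylic acid cycle. Sdha encodes its flavoprotein, Sdhb its iron-sulfur subunit, and Sdhc and Sdhd its membrane anchors. Sdha lies at chr13:74459702-74487728 and Sdhd at chr9:50404443-50411954. Sdha had 107 and 115 FPKM for Endo, 94.4 and 111 for HE, 119, 116 and 125 for pre-HSCs, 311 and 355 for FL HSCs and 249.95 and 310 for BM HSCs. All 4 HSC libraries lay above all 7 earlier ones. The log2 change was 1.46 in FL HSCs against pre-HSCs (SE 0.14, limma's adjusted p = 1.81e-05) and -0.25 in BM HSCs against FL HSCs (SE 0.15, limma's adjusted p = 0.254).

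Sdhb and Sdhd had other values, and the difference between their courses and that of Sdha was not tested. Sdhb had 153 and 97.9 FPKM in FL HSCs, against 83.6, 81.6 and 100 FPKM in pre-HSCs, with a log2 change of 0.47 (SE 0.21, limma's adjusted p = 0.0823). Sdhd had 184 and 138 FPKM in FL HSCs, against 92.1, 96.0 and 112 FPKM in pre-HSCs, with a log2 change of 0.67 (SE 0.16, limma's adjusted p = 0.00564). In BM HSCs Sdhd had 69.2 and 83.3 FPKM and fell by 1.06 on the log2 scale against FL HSCs (SE 0.17, limma's adjusted p = 0.00262), or by 0.85 without FL HSC replicate 1 and 0.93 without BM HSC replicate 1, which was not called. Within a library, Sdha stood at 0.755 and 1.13 times Sdhb for Endo, 0.915 and 1.13 for HE, 1.42, 1.42 and 1.26 for pre-HSCs, 2.03 and 3.63 for FL HSCs and 3.73 and 3.92 for BM HSCs. This ratio does not depend on the scaling of a library, and the HSC libraries again lay above all others. Every stretch of 75 bases of Sdha, Sdhb and Sdhd was unique in the genome.

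Complex III passes electrons from ubiquinol to cytochrome c. Uqcrq, one of its small subunits, at chr11:53241424-53244333, had 407 and 218 FPKM for Endo, 275 and 241 for HE, 114, 115 and 130 for pre-HSCs, 272 and 159 for FL HSCs and 121 and 110 for BM HSCs. The pre-HSC and BM HSC libraries lay below the rest. It fell by 1.10 on the log2 scale in pre-HSCs against HE (SE 0.27, limma's adjusted p = 0.016), and with FPKM scaled to equal totals the value was -0.94 and no longer called. It was also not called without HE replicate 1, pre-HSC replicate 1, pre-HSC replicate 2, BM HSC replicate 1 or BM HSC replicate 2, with values of -1.01 to -1.10. The most abundant nuclear members of this complex were Uqcr10, at 218 to 572 FPKM, and Uqcr11, at 186 to 540 FPKM. Uqcr11 passed in pre-HSCs against HE, where it fell by 0.91 on the log2 scale (SE 0.26, limma's adjusted p = 0.0278), and in FL HSCs against pre-HSCs, where it rose by 0.88 (SE 0.26, limma's adjusted p = 0.0167).

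Complex IV is cytochrome c oxidase, which hands the electrons to oxygen, and several of its nuclear subunits exist as isoforms made by different genes. Cox6b2, known as the testis isoform of subunit VIb, had the largest rise of all members in any comparison. The gene lies at chr7:4703396-4704696. It had 12.05 and 14.0 FPKM for Endo, 11.4 and 12.2 for HE, 10.8, 8.33 and 10.2 for pre-HSCs, 81.9 and 72.6 for FL HSCs and 46.3 and 66.4 for BM HSCs. Every HSC library was above every earlier library. The log2 change was 2.86 in FL HSCs against pre-HSCs (SE 0.18, limma's adjusted p = 1.16e-06). Cox6b1, the widely used isoform, had 594 and 377 FPKM in FL HSCs, against 393, 442 and 496 FPKM in pre-HSCs, with a log2 change of 0.10 (SE 0.24, limma's adjusted p = 0.751).

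Cox6b1 remained the more abundant isoform per length in all 11 libraries. Cox6b2 stood at 13.8% and 19.3% of Cox6b1 in FL HSCs and at 15.7% and 22.2% in BM HSCs, against 1.42% to 2.76% in the 7 earlier libraries. Both genes were unique over all stretches of 75 bases, and neither shared exon bases with another annotated gene.

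Ndufa4l2, a gene known for its induction in low oxygen and a homolog of the complex IV subunit Ndufa4, was the other isoform that was called, at low levels. It lies at chr10:126951995-126954208. It had 1.70 and 5.23 FPKM for Endo, 9.77 and 7.41 for HE, 1.13, 0.884 and 0.340 for pre-HSCs, 3.90 and 2.68 for FL HSCs and 0.0686 and 0 for BM HSCs. No neighboring populations overlapped. The log2 change was -2.44 in pre-HSCs against HE (SE 0.35, limma's adjusted p = 0.00145), 1.28 in FL HSCs against pre-HSCs (SE 0.35, limma's adjusted p = 0.0128) and -2.04 in BM HSCs against FL HSCs (SE 0.38, limma's adjusted p = 0.0054). These are on the log2(FPKM + 1) scale, which understates the change of so low a gene. Without FL HSC replicate 1 the value in FL HSCs against pre-HSCs was 1.07 and not called. Its exons share 14 bases with Shmt2 on the other strand, and strand was not kept. Ndufa4 itself had 313 to 719 FPKM and passed in no comparison.

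Other isoforms of complex IV gave a mixed picture. Cox4i2, also known as an isoform of low oxygen, had 2.78 and 1.58 FPKM in BM HSCs, against 11.6 and 7.57 FPKM in FL HSCs, with a log2 change of -1.73 (SE 0.45, limma's adjusted p = 0.0221). Cox7a1, a muscle isoform, stayed between 1.23 and 8.18 FPKM with overlap in every comparison. Cox7a2 fell in pre-HSCs against HE, with a log2 change of -0.88 (SE 0.23, limma's adjusted p = 0.0216), whereas the value of Cox7a2l, which acts in supercomplex assembly, was 0.02 (SE 0.18, limma's adjusted p = 0.946). Cox6a2, Cox8b, Cox8c and Cox7b2, isoforms of muscle or germ cells, were each under 1 FPKM in every library. Cox8a, the common isoform, fell by 0.93 in pre-HSCs against HE (SE 0.21, limma's adjusted p = 0.0123) and rose by 0.75 in FL HSCs against pre-HSCs (SE 0.21, limma's adjusted p = 0.0151). Cox7b had 89.2 and 89.5 FPKM in BM HSCs, against 163 and 128 FPKM in FL HSCs, a log2 difference of -0.69 (SE 0.19, limma's adjusted p = 0.0269). The most abundant nuclear members of this complex were Cox6a1, at 409 to 980 FPKM, and Cox5b, at 327 to 870 FPKM. For Cox5b 49.4% of stretches were unique.

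Complex V is the ATP synthase. Atp5g1, Atp5g2 and Atp5g3 encode the same mature subunit c of its rotor, with different import sequences. Atp5g1, at chr11:95930166-95936984, had 382 and 280 FPKM for Endo, 316 and 270 for HE, 129, 138 and 157 for pre-HSCs, 394 and 237 for FL HSCs and 124 and 147 for BM HSCs. Its log2 fold change was -1.05 in pre-HSCs against HE (SE 0.22, limma's adjusted p = 0.00868), 1.11 in FL HSCs against pre-HSCs (SE 0.22, limma's adjusted p = 0.00242) and -1.17 in BM HSCs against FL HSCs (SE 0.24, limma's adjusted p = 0.0086). With quantile normalization the sizes were -0.77, 0.89 and -0.92, which is under 2-fold. Without FL HSC replicate 1 it was 0.75 in FL HSCs against pre-HSCs and -0.81 in BM HSCs against FL HSCs.

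Atp5g3 had 707 and 495 FPKM in FL HSCs, against 468, 503 and 559 FPKM in pre-HSCs, a log2 change of 0.22 (SE 0.19, limma's adjusted p = 0.37). It fell by 0.61 in pre-HSCs against HE (SE 0.19, limma's adjusted p = 0.0403) and by 0.88 in BM HSCs against FL HSCs (SE 0.21, limma's adjusted p = 0.0152), in the directions of Atp5g1. Atp5g2 passed in no comparison, and none of its stretches of 75 bases was unique, so its values are uncertain. For Atp5g1 that share was 76.4%. Atp5b, the catalytic beta subunit and the most abundant nuclear member, had 2841 and 1948 FPKM in FL HSCs, against 1199, 1289 and 1372 FPKM in pre-HSCs, and rose by 0.87 on the log2 scale (SE 0.20, limma's adjusted p = 0.00457). In BM HSCs it had 1110 and 1309 FPKM, with a log2 change of -0.96 against FL HSCs (SE 0.21, limma's adjusted p = 0.0115). Atp5e, the small epsilon subunit and the next most abundant, had 472 to 1109 FPKM and passed in no comparison.

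**Figure D4:**
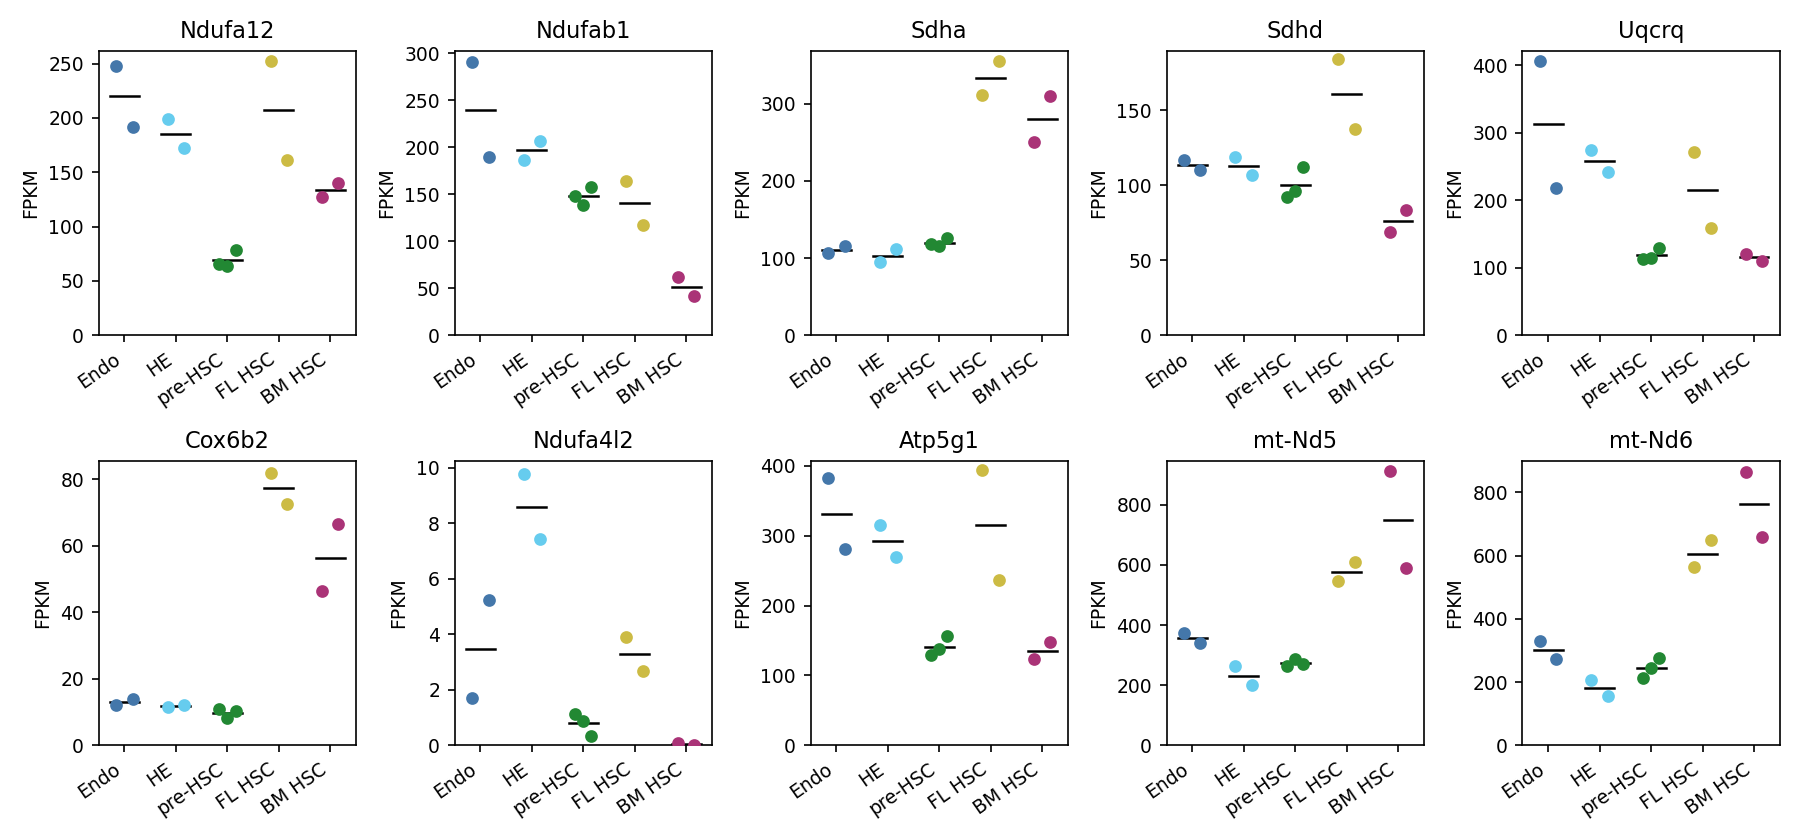
FPKM of the 10 members called in at least 1 comparison, by population. Each point is 1 library, lines are means, and each panel has its own axis from 0. Sdha, Cox6b2, mt-Nd5 and mt-Nd6 were higher in all 4 HSC libraries than in all 7 earlier ones, and Ndufa12 was lowest in the pre-HSC libraries.

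The mitochondrial genes are shown next with their sequence context, because reads were kept only when they mapped to 1 place and parts of the mitochondrial genome have copies in the nuclear chromosomes. In the NCBIM37 (mm9) genome a stretch of 3067 bases of chromosome 1, chr1:24619957-24623023, is identical to chrM:6394-9460. All stretches of 75 bases of mt-Co2, mt-Co3, mt-Atp6, mt-Atp8 and mt-Nd4l had an exact copy elsewhere in the genome, and 1.09% of those of mt-Nd3, 38.5% of mt-Nd4 and 60.2% of mt-Co1 were unique. For mt-Nd2, mt-Nd5, mt-Nd1, mt-Nd6 and mt-Cytb the unique share was 94.3%, 98.3%, 100%, 100% and 100%. The 8 genes with the lower shares nevertheless gave 77.0% to 83.4% of the mitochondrial FPKM, and how their reads were treated is not given in the sources. With only the 5 mostly unique genes, the log2 ratio to the nuclear sum was -2.05 ± 0.06 for Endo, -2.49 ± 0.07 for HE, -1.77 ± 0.30 for pre-HSCs, -1.76 ± 0.52 for FL HSCs and -1.14 ± 0.27 for BM HSCs (SD, n = 3 for pre-HSCs and 2 otherwise), so HE again had the lowest and BM HSCs the highest value.

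2 overlaps on the mitochondrial DNA are printed because they bear on values below. Capitals mark the bases that belong to both genes, which number 43 for mt-Atp8 and mt-Atp6 and 14 for mt-Nd5 and mt-Nd6, with 20 bases on either side in lower case. The coordinates are of NCBIM37, and the chromosome 1 copy is printed on the strand that matches the mitochondrial one.
mt-Atp8 and mt-Atp6, chrM:7907-7989, plus strand: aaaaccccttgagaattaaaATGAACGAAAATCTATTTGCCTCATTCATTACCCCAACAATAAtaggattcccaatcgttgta
Chromosome 1 copy, chr1:24621428-24621510, minus strand: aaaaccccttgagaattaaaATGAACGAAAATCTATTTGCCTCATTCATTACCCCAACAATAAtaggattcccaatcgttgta
mt-Nd5 and mt-Nd6, chrM:13532-13585, plus strand: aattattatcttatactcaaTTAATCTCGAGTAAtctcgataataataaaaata

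mt-Atp8 and mt-Atp6 encode subunits of the ATP synthase on 1 messenger, yet they were far apart in FPKM. mt-Atp8 was listed at 3066 to 8738 FPKM and mt-Atp6 at 370 to 734 FPKM, and within a library mt-Atp8 stood at 7.31 to 16.6 times mt-Atp6. mt-Nd4l, which overlaps mt-Nd4 by 7 bases, was listed at 0 or close to it in all libraries, with a highest value of 1.34 FPKM, and all 22 mitochondrial tRNA genes were listed at 0. Levels of the genes within the chromosome 1 copy cannot be compared with each other for this reason.

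mt-Nd5 and mt-Nd6 encode subunits of complex I and were the called mitochondrial members. mt-Nd6 is the single protein gene on its strand. mt-Nd5 had 373 and 342 FPKM for Endo, 262 and 201 for HE, 263, 286 and 270.0 for pre-HSCs, 545 and 610 for FL HSCs and 912 and 590.0 for BM HSCs. mt-Nd6 had 331 and 273 FPKM for Endo, 206 and 155 for HE, 213, 244 and 277 for pre-HSCs, 565 and 648 for FL HSCs and 865 and 660 for BM HSCs. For both genes the 4 HSC libraries lay above the 7 others.

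In FL HSCs against pre-HSCs the log2 fold change was 1.07 for mt-Nd5 (SE 0.19, limma's adjusted p = 0.00126) and 1.31 for mt-Nd6 (SE 0.19, limma's adjusted p = 0.00034). With FPKM scaled to equal totals the log2 change of mt-Nd5 was 0.83, and without FL HSC replicate 2 it was 0.99, both under 2-fold. The genes lie end to end on opposite strands, and reads from one strand and the other cannot be told apart in these libraries. Reads of a transcript antisense to mt-Nd6 would therefore count as mt-Nd6. In the 11 libraries, which were made from poly(A) RNA, mt-Nd6 stood at 0.769 to 1.12 times mt-Nd5. Whether the 2 calls are separate signals was not tested. Within a library, mt-Nd5 stood at 0.631 and 0.706 times mt-Nd4 in FL HSCs and at 0.849 and 0.726 times in BM HSCs, against 0.326 to 0.432 times in the 7 earlier libraries. Only 38.5% of the stretches of 75 bases of mt-Nd4 were unique.

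mt-Nd2, also of complex I, rose in FL HSCs against pre-HSCs, with 738 and 746 FPKM against 535, 517 and 421 FPKM, a log2 difference of 0.60 (SE 0.19, limma's adjusted p = 0.0224). The other mitochondrial genes passed in no comparison. mt-Nd1, of complex I and unique in all stretches, had 2585 and 1552 FPKM for Endo, 1336 and 1273 for HE, 1644, 1545 and 1315 for pre-HSCs, 1838 and 2128 for FL HSCs and 1421 and 1348 for BM HSCs. mt-Cytb, the cytochrome b of complex III, had 2508 and 1636 FPKM for Endo, 1418 and 1336 for HE, 1946, 1855 and 1472 for pre-HSCs, 1883 and 2273 for FL HSCs and 2675 and 2591 for BM HSCs. Thus mt-Nd1 was high in Endo replicate 1 and FL HSCs, and mt-Cytb in Endo replicate 1 and BM HSCs. The complex IV core genes mt-Co1, mt-Co2 and mt-Co3 ranged over 2786 to 5290, 3013 to 6499 and 2499 to 5679 FPKM, mt-Nd3 over 1091 to 2011 FPKM and mt-Nd4 over 617 to 1118 FPKM.

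**Figure D5:**
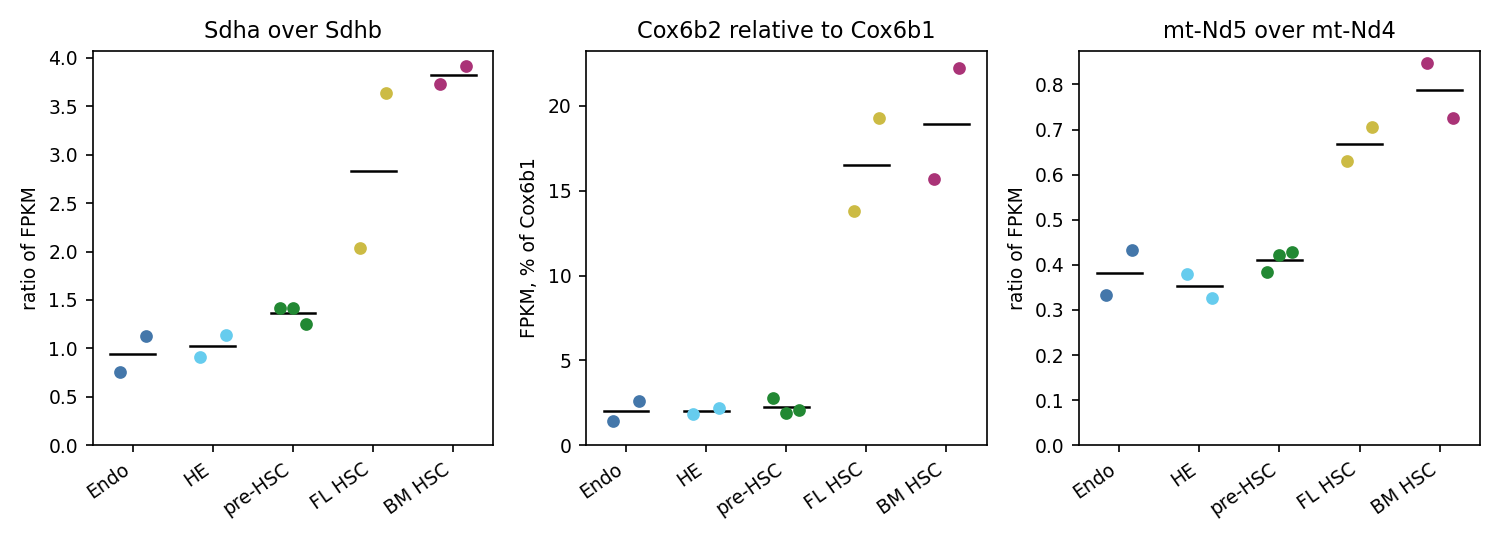
FPKM ratios of member pairs within each library, which do not depend on the scaling of the library: Sdha over Sdhb, Cox6b2 as a percentage of Cox6b1, and mt-Nd5 over mt-Nd4. Each point is 1 library and each line a mean. In all 3 panels every HSC library lay above every earlier library. Each numerator was a member called higher in FL HSCs against pre-HSCs, and mt-Nd4 was unique in only 38.5% of its stretches of 75 bases.

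Promoters of the nuclear members held short motifs that the choice of genes did not use. RefSeq promoters (GRCm38.p6, 250 bases before to 50 after the start) were matched for 75 of the 90 nuclear members, which are 74 RefSeq genes. Both strands were searched for the letters GCGCATGCG of NRF1, CCGGAAG of the ETS family that includes GABP, AAGATGGCG of YY1 and AAGGTCA of the estrogen-related receptors, and the motifs do not contain one another. NRF1 letters were in 12.2% of the members' genes against 1.95% of all 27025 genes, ETS letters in 23.0% against 9.93%, YY1 letters in 10.8% against 1.64% and receptor letters in 10.8% against 5.38%. At least 1 of the 4 was in 44.6% of the members' genes and in 17.6% of all genes. These are matches of letters and not measured binding.

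Of the called nuclear members with a promoter in the table, Sdhd held ETS and receptor letters, and Sdha, Cox6b2, Ndufa12, Ndufab1 and Atp5g1 held none of the 4. Both NRF1 and ETS letters were held by 4 members, Uqcr11, Cox6a1, Atp5k and Atp5l. In pre-HSCs against HE Uqcr11 and Cox6a1 fell, while Atp5k and Atp5l had log2 fold changes of -0.55 and -0.28 (limma's adjusted p = 0.173 and 0.468). Printed below are Sdhd, then Uqcr11 and Cox6a1 as the 2 of these 4 that passed the test, and then Sdha and Cox6b2, the members with the lowest adjusted p in FL HSCs against pre-HSCs. Capitals mark the matched letters.
Sdhd promoter, chr9:50603800-50604099, minus strand: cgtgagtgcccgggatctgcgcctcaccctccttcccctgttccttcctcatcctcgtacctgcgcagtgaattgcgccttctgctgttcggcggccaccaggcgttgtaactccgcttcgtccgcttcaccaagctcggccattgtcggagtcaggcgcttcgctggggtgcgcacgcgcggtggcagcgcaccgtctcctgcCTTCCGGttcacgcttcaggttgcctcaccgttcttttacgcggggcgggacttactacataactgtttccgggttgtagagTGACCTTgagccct
Uqcr11 promoter, chr10:80406772-80407071, minus strand: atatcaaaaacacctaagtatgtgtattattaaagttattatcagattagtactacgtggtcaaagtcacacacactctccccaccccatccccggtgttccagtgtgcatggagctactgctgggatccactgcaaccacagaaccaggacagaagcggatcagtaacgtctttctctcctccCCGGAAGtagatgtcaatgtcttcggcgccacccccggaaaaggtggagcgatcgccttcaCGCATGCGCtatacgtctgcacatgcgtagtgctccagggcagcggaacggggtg
Cox6a1 promoter, chr5:115348909-115349208, minus strand: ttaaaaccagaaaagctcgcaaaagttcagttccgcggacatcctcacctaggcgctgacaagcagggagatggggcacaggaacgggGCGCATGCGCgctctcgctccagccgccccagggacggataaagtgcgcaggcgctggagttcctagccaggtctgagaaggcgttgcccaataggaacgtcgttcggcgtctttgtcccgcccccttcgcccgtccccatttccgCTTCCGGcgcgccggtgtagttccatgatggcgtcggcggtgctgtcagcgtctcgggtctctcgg
Sdha promoter, chr13:74350191-74350490, minus strand: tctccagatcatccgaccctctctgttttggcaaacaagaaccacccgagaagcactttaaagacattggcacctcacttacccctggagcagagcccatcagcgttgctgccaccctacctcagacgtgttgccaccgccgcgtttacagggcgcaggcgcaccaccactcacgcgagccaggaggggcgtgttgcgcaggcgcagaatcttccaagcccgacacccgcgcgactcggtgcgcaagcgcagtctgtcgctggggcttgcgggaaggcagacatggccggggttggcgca
Cox6b2 promoter, chr7:4753045-4753344, minus strand: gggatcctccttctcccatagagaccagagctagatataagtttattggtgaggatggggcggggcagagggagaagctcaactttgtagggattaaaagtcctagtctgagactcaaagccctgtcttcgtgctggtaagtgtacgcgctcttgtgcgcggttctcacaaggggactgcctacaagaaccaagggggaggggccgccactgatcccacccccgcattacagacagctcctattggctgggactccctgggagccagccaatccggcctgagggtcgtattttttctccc

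Genes of related roles outside the naming rule are counted at an adjusted p under 0.05 and read against all genes, of which 15.4% rose and 11.7% fell in pre-HSCs against HE, 27.6% rose and 22.4% fell in FL HSCs against pre-HSCs, and 11.4% rose and 11.6% fell in BM HSCs against FL HSCs. Among the other abundant genes 40.6% rose in FL HSCs against pre-HSCs. In HE against Endo no gene of these lists passed with limma, and at an unadjusted p under 0.05 at most 1 gene of each list was lower and 0 were higher. Of 24 further assembly factors tested, 16 rose in FL HSCs against pre-HSCs and 0 fell. Their median log2 change was 0.61, against 0.11 over all genes and 0.34 over the other abundant genes. Values under other scalings are not given for these lists. They included Cox17, a copper chaperone of complex IV, with a mean of 256 FPKM in FL HSCs against 84.1 FPKM in pre-HSCs and a log2 change of 1.56 (SE 0.21, limma's adjusted p = 0.000221). Atpaf2 of the ATP synthase, Bcs1l of complex III and Ecsit of complex I were also called, with log2 fold changes of 1.41, 1.26 and 1.24. In BM HSCs against FL HSCs, 8 of the 24 fell and 1 rose, and Cox10, which makes heme A for complex IV, was called at -1.003.

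Of 18 genes of the tricarboxylic acid cycle, 10 rose and 0 fell in FL HSCs against pre-HSCs, with Idh3a called at 1.22 and Idh3g at 1.05, and 7 fell and 0 rose in BM HSCs against FL HSCs. The medians of this list were 0.41 and -0.45, against 0.34 and -0.32 over the other abundant genes. Of 13 genes of mitochondrial DNA transcription and replication, 5 rose and 1 fell in FL HSCs, among them Tfam, which packs and transcribes the mitochondrial DNA, with a mean of 82.1 FPKM in FL HSCs against 39.3 FPKM in pre-HSCs (log2 fold change 1.05, SE 0.17, limma's adjusted p = 0.000773), and the helicase gene Peo1 at 1.19. None of the 13 passed in BM HSCs against FL HSCs. Of 17 genes of mitochondrial RNA processing and stability 8 rose and 0 fell in FL HSCs, with Elac2, which cuts the tRNA ends out of the precursors, called at 1.30. In BM HSCs against FL HSCs 3 of the 17 fell and 0 rose. Of 19 genes of mitochondrial dynamics, quality control and uncoupling 7 rose and 1 fell in FL HSCs, with Sod2 called at 1.26 and Prdx3 at 1.05, and 1 rose and 5 fell in BM HSCs against FL HSCs. The rises of the DNA list, 5 of 13, and of the quality control list, 7 of 19, lie between the shares of all genes and of other abundant genes. In pre-HSCs against HE these lists held few passing genes, with 2 rises and 0 falls among assembly factors, 2 and 1 in the tricarboxylic acid cycle, 0 and 1 in mitochondrial DNA transcription and replication, 2 and 1 in RNA processing, and 1 and 2 in quality control.

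Among 12 nuclear regulators, 5 rose and 0 fell in pre-HSCs against HE, and 7 rose and 2 fell in FL HSCs against pre-HSCs. None of the 12 passed in BM HSCs against FL HSCs. Myc had a mean of 133 FPKM in FL HSCs against 29.6 FPKM in pre-HSCs, with a log2 change of 2.13, Sp1 was called at 1.88 and Ppargc1b, a coactivator of respiratory genes, at 1.26. Esrrg, an estrogen-related receptor, was called lower in FL HSCs at -1.31 and higher in pre-HSCs against HE at 1.09. Gabpa, a subunit of GABP, was called higher in pre-HSCs against HE, at 1.01, as was Sp1 at 1.06. Gabpa shares 397 exon bases with the member Atp5j on the other strand, and strand was not kept. Of 8 further subunits and carriers, 3 fell in pre-HSCs against HE, 2 rose in FL HSCs against pre-HSCs and 2 fell in BM HSCs against FL HSCs. The mobile electron carrier cytochrome c, encoded by Cycs, was called lower in pre-HSCs against HE, at -1.01, and in BM HSCs against FL HSCs, at -1.05, where Cyc1 of complex III was also called lower at -1.04.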

How the data were processed

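Poly(A) RNA was sequenced as paired ends in 11 libraries of 5 sorted populations. The authors deposited FPKM values per gene and library, after alignment to mm9 by TopHat with only uniquely placed reads kept. Cufflinks, featureCounts (Subread) and edgeR are also named in the submitters' processing notes, without versions. No source used here names the tool behind the FPKM. FPKM are not counts, so limma 3.58.1 (R 4.3.3) was run on log2(FPKM + 1), using lmFit and a trended eBayes, with all libraries and 1 coefficient per population. Benjamini-Hochberg adjustment covered 14708 genes, those with 1 FPKM in at least 2 libraries. The fit was tested on simulated data with independent noise per gene and library. That simulation held no shift shared by the genes of a library, so it does not cover the differences between libraries described above. Depth is unknown, and no counting interval is given.

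GENCODE M1 on NCBIM37 gave symbols and positions, counted from 1, to 37038 of 37820 IDs. Copies were sought with BLAST+ 2.17.0, and a stretch of 75 bases counted as unique when no exact copy lay elsewhere. Python 3.11.15 was used with numpy 2.4.6, pandas 2.3.3 and, for plots, matplotlib 3.10.9. The members and gene lists were chosen with earlier results of these data known. Named are all mitochondrial members, all called members, the 2 most abundant nuclear genes of each complex and of the assembly factors, isoform families, the 5 largest rises and falls per comparison, and up to 4 called genes of each list. Other genes were named after their values were seen. Alternatives were other pseudocounts, filters, scalings and thresholds, the replicate number as a block, fewer populations and each library left out. A length trend removed, centering on abundant genes and an unadjusted p were chosen after seeing the data.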

Additional observations from a re-analysis of the deposited data

How the results depend on the processing

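Counts of called members are given first. In HE against Endo the count was 0 in every alternative except an unadjusted p, which gave 1. In pre-HSCs against HE it was 4, and 2 with quantile normalization, with either scaling of the totals or after centering on abundant genes, 15 at 1.5-fold, and 2 to 7 with a library left out. In FL HSCs against pre-HSCs it was 7, and 14 at 1.5-fold, 3 after centering on abundant genes and 5 to 14 with a library left out. In BM HSCs against FL HSCs it was 4, and 2 with quantile normalization, 12 at 1.5-fold, 0 with only the libraries of both populations in the fit, and 2 to 19 with a library left out. Counts at an adjusted p under 0.05 follow. In HE against Endo it was 0, and 8 at an unadjusted p. In pre-HSCs against HE it was 22, and 14 without a filter, 3 at an adjusted p under 0.01, 37 at an unadjusted p and 2 to 27 with a library left out. In FL HSCs against pre-HSCs it was 33, and 15 at an adjusted p under 0.01, 20 with the length trend removed and 10 to 43 with a library left out. In BM HSCs against FL HSCs it was 21, and 13 without a filter, 5 at an adjusted p under 0.01, 52 at an unadjusted p, 0 with only the libraries of both populations in the fit, and 3 to 44 with a library left out. The cause of these differences was not tested, except that a stricter p lowers counts by construction. Leaving a library out lowered some counts and raised others. After centering, the members at an adjusted p under 0.05 were 7 higher and 19 lower in pre-HSCs against HE, 18 higher and 4 lower in FL HSCs against pre-HSCs, and 5 higher and 9 lower in BM HSCs against FL HSCs. Centering moved the median log2 change of all genes to 0.11, 0.31, -0.20 and 0.36, against 0.03, 0.09, 0.11 and 0.00 without it. The log2 ratio of mitochondrial to nuclear FPKM, as a difference of medians, averaged 2.89 in HE and 2.96 in Endo, and these libraries overlapped. With sums this log2 ratio differed by 0.94 in pre-HSCs against HE, and by 0.54 as a difference of medians. In FL HSCs against pre-HSCs it differed by -0.31, by 0.059 as medians, by 0.015 with the mostly unique genes and by -0.69 to 0.072 with a library left out. In BM HSCs against FL HSCs it differed by 0.70, by 0.12 as medians and by 0.32 to 1.08 with a library left out. Differences of replicate 1 from its population mean had correlations of -0.155 to 0.156 between pairs of populations, over the tested genes. The replicate numbers were therefore not taken as pairs. The study lists the same number of dissected embryos for Endo and HE, so these libraries may come from the same sorts. The correlation of 0.115 for Endo with HE cannot decide this. With the replicate block the called members numbered 0, 5, 7 and 4 over the 4 comparisons. Those at an adjusted p under 0.05 numbered 0, 25, 33 and 25.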
